A study of Mus musculus with 10 samples.

Results

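Emcn, Pecam1, Podxl and Cd34 are 4 of the 26504 gene symbols counted in single endothelial cells (ECs) of mouse long bone. They were chosen by name, as the genes behind the surface proteins used to tell bone capillaries apart, by a rule that uses no measured value but was set with earlier results of these data known. Their UMI counts (unique molecular identifiers, each standing for a captured RNA molecule) were read in 10 libraries of sorted cells. All mice carried the Cdh5-mTnG transgene on C57BL/6, in which regulatory sequence of Cdh5, the gene of VE-cadherin, drives a red membrane and a green nuclear reporter in endothelium. Lineage-depleted cells of femur and tibia that were positive for both colours were sorted and loaded on a droplet platform. The 5 groups had 2 libraries each. Juvenile mice were 3 weeks old and of both sexes, adult mice 12 weeks old, and aged mice 75 weeks old. The PTH group (parathyroid hormone, which builds bone when given intermittently) and the alendronate group (a bisphosphonate, which blocks osteoclasts) were also 12 weeks old and were compared with the adult group. The study's methods give PBS injections as the control of the drug treatments, and the labels do not say whether the adult libraries came from mice injected with it. All groups other than the juvenile one were female, so age and sex cannot be told apart there. The mice of a group were pooled, and nothing ties the 2 libraries of a group to separate animals. The p-values between groups thus measure the spread between libraries of a pool. Those between vessel types run over all 10 libraries, so they also take in how far the types differ between the 5 groups.

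Endomucin (Emcn), podocalyxin (Podxl) and CD34 are sialomucins, membrane proteins whose outer part is covered with O-linked sugars capped by sialic acid, which give the vessel lining a negatively charged coat. Podocalyxin and CD34 belong to the same small family, their short tails bind adaptor and ERM (ezrin, radixin, moesin) proteins, and in specialised venules their sulphated forms are ligands of L-selectin. PECAM1 (CD31) is an immunoglobulin-type adhesion molecule of the junctions between ECs whose tail recruits phosphatases. In long bone, capillaries that stain strongly for both endomucin and CD31 are called type H and lie in the metaphysis beside bone-forming cells, while the marrow sinusoids, which stain more weakly, are called type L.

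In GRCm38 with GENCODE vM21, Emcn spans chr3:137341067-137432185 on the plus strand with 12 merged exons. Pecam1 lies at chr11:106654217-106750628 on the minus strand with 17. Podxl lies at chr6:31519488-31563981 on the minus strand with 9. Cd34 lies at chr1:194938819-194961279 on the plus strand with 7, and the antisense gene Gm16897 shares 148 exonic bases with it. Gm16897 itself had 2352 UMIs, and whether the counting used strand is not given in the sources used here. RefSeq promoters (GRCm38.p6) were matched for 2 of the 4 members, Emcn and Cd34, which were both higher in metaphyseal than in sinusoidal cells as described further on. The 250 bases before each start are printed 5′ to 3′ in lower case, from chr3:137340828-137341077 and chr1:194938571-194938820, both on the plus strand. Capitals mark GGAA and its reverse complement TTCC, the core that ETS transcription factors bind.
Emcn: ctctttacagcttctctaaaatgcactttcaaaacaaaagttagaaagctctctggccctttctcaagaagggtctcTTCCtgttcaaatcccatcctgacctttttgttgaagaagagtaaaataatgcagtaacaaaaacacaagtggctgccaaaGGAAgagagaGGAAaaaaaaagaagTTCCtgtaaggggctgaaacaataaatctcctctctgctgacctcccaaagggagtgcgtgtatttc
Cd34: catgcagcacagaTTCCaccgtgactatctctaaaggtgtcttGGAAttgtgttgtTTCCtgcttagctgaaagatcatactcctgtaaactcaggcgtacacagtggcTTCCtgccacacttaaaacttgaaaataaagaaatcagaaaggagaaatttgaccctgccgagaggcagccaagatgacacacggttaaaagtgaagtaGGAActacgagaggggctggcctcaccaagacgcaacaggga
The Emcn window held 4 such cores and the Cd34 window 5. Of 32851 promoter windows of this length, 93.4% held at least 1, 33.4% held at least as many as Emcn and 18.03% at least as many as Cd34, so the letters are common and mark no site by themselves.

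The files held 47466 barcodes, of which 46283 passed the limits on genes and mitochondrial UMIs. Libraries held 10653583 to 28419323 UMIs in all, with medians of 3075 to 5149 UMIs per cell, and any pair of libraries shared between 1 and 78 barcodes. After other cells were set aside, 44026 ECs remained. They were clustered without the 4 members, without the related genes listed further on and without cell-cycle genes, and clusters were named from markers. There were 18493 bmEC-like cells (sinusoidal, with Stab2 at 1883 CPM, counts scaled to a common library total), 13361 mpEC-like cells (metaphyseal, Ramp3 403 and Aplnr 994), 6221 aEC-like cells (arterial, Gja4 1329), 4752 rEC-like cells (the type R capillaries near trabecular bone, Timp4 625 and Aqp7 275, from a cluster of 2912 cells led by Timp4 and Aqp7 and one of 1840 led by Tagln and Vwf) and 692 pEC-like cells (proliferating, Mki67 232). The largest mpEC-like cluster (5748 cells) was led by Rbp7, Ramp3 and Gja4, the last an arterial marker. A shallow mpEC-like cluster of 2291 cells, at 0.362 of its libraries' median UMIs, was led by Gm10800 and Gm10801. At a finer clustering, a cluster of 2175 cells led by Gja4 and Rbp7 was named aEC-like. The bmEC-like class includes a cluster of 227 cells led by stromal genes (Ibsp, Hp and Adipoq), with none of the sinusoidal markers among its 10 leading genes. Without it and the shallow clusters, all calls of members between types and 15 of 16 differences of effects between mpEC-like and bmEC-like cells kept their side of the threshold. The juvenile Emcn difference of effects did not (0.11), and aged Pecam1 (0.12) and PTH Podxl (0.15) newly passed in mpEC-like cells. The rEC-like cluster led by Tagln and Vwf had 3 of the 5 rEC markers raised. Without integration across libraries, a cluster of 1602 cells led by Ccl21a, Tagln, Fgl2 and Vwf stayed unnamed. The PTH libraries then held 37 and 379 rEC-like cells, against 154 and 803 with integration. With integration a further 507 ECs stayed unnamed. The aged libraries stood apart. Their median cell held 5149 and 5056 UMIs, against 3276 and 3075 in the adult libraries. The median mitochondrial share was 2.31% and 2.42%, against 1.15% and 1.16%. When cells were clustered without integration across libraries, the aged libraries held 3 and 1 mpEC-like cells, so the aged values of clustered mpEC-like cells rest on the integration. They then held 1325 and 1381 aEC-like cells, against 554 and 568 with integration. A gate on UMIs of a few marker genes, which needs no integration and was run as an alternative, held 241 and 270 aged mpEC-like cells. It named a cell only where the cell held UMIs of the gate markers of a single type. It left 22986 ECs unnamed and kept 961 rEC-like cells, with 55 and 56 in the adult and 8 and 62 in the PTH libraries. Calls lost with the gate thus rest on fewer and differently chosen cells. The platform is given as V2/V3, and a kit difference and age cannot be told apart for the aged libraries.

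Emcn was highest in mpEC-like cells in all 10 libraries. Its normalised level there was 1197 CPM in the lowest library, 1618 in the median and 1944 in the highest, with a mean of 1603 ± 242 (SD, n = 10). In bmEC-like cells it was 706, 784 and 901 CPM, with a mean of 802 ± 71.9 (SD, n = 10). The lowest mpEC-like library lay above the highest bmEC-like library, and within a library the ratio ran from 1.56 in an aged library to 2.32 in a juvenile one. Pooled over libraries in an edgeR quasi-likelihood fit with the library as a block, the log2 difference was 0.98 (SE 0.07, adjusted p = 1.40e-17). Between these types 56.9% of 12779 genes tested passed the same threshold, and all 4 members were among them, so passing is common here and the sizes carry the description.

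Elsewhere Emcn was intermediate in pEC-like and rEC-like cells and low in arteries. The mean was 1214 ± 269 CPM in pEC-like cells (SD, n = 9). It was 1005 ± 144 in the rEC-like type and 567 ± 102 in the aEC-like type (SD, n = 10 each). The aEC-like level was the lowest of the types in 10 of 10 libraries. Against bmEC-like cells Emcn was lower in aEC-like cells by a log2 difference of -0.53 (SE 0.07, adjusted p = 2.81e-09), in a comparison in which 65.2% of genes passed. It was higher in rEC-like than in bmEC-like cells by 0.31 (SE 0.07, adjusted p = 0.000143), with 60.5% of genes passing, but only in 8 of 10 libraries. Both aged libraries were the exceptions. The rEC-like difference turned to -0.31 with the marker gate and to -0.15 without integration, and at a finer clustering it was 0.075 and did not pass, so the place of rEC-like against bmEC-like cells in the order of Emcn depends on how the cells are named. Against bmEC-like cells the aEC-like difference was -0.23 at the finer clustering and -0.27 without integration, and both passed. The difference between rEC-like and aEC-like cells fell from 0.83 to 0.31 at the finer clustering, and did not pass with the marker gate (0.25) or without integration (0.13). Emcn fell from mpEC-like to rEC-like cells by 0.67 on the log2 scale (46.0% of genes passed) and to aEC-like cells by 1.51 (48.2%), both in 10 of 10 libraries. The rEC-like difference was -1.20 without integration and -1.35 with the marker gate.

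**Figure D1:**
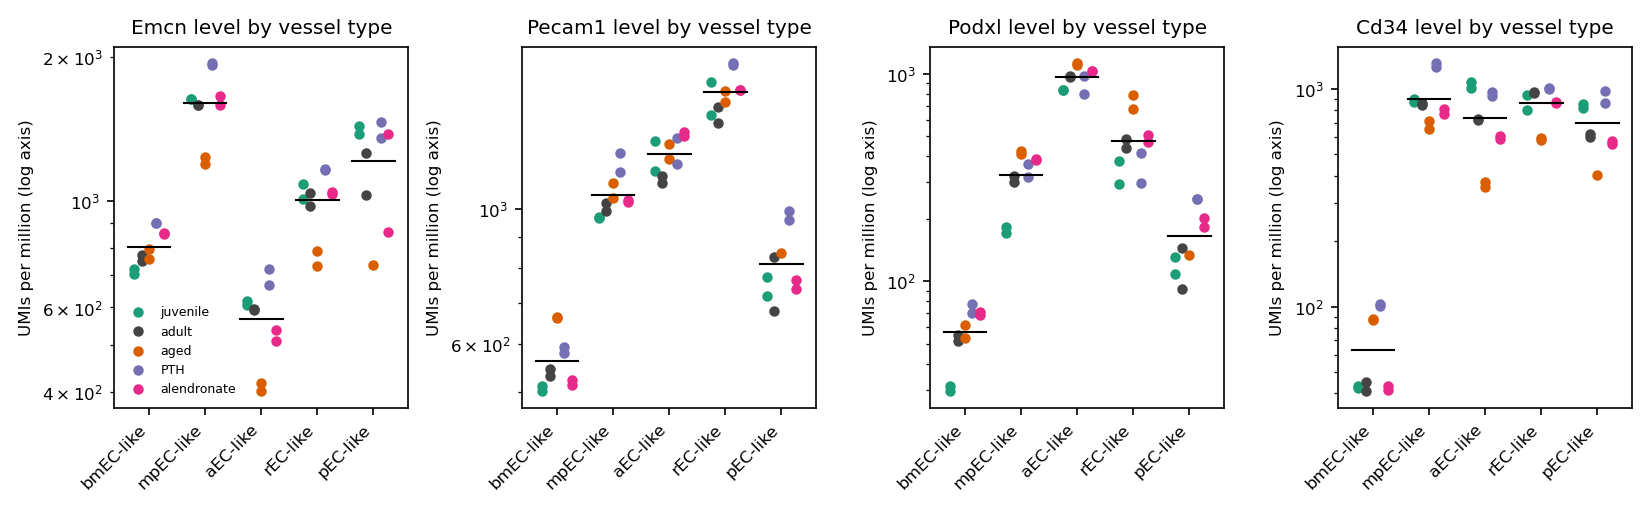
Normalised level (CPM, log axis) of Emcn, Pecam1, Podxl and Cd34 in each vessel type, with 1 point per library coloured by group and a bar at the mean of the libraries. Emcn peaks in mpEC-like cells, Pecam1 in rEC-like cells and Podxl in aEC-like cells, while the Cd34 ranges of these 3 types overlap, and bmEC-like cells are lowest for Pecam1, Podxl and Cd34.

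Pecam1 had another order, with rEC-like cells highest and bmEC-like cells lowest in all 10 libraries. Its mean was 1561 ± 117 CPM in rEC-like, 1234 ± 85.9 in aEC-like, 1057 ± 85.9 in mpEC-like and 562 ± 60.7 in bmEC-like cells (SD, n = 10 each), with 813 ± 107 in pEC-like cells (SD, n = 9). Each step of the first 4 passed the test. The log2 difference was 0.33 between rEC-like and aEC-like cells (SE 0.05, adjusted p = 6.20e-07, 35.1% of genes passed), 0.23 between aEC-like and mpEC-like cells (SE 0.05, adjusted p = 0.00022) and 0.91 between mpEC-like and bmEC-like cells (SE 0.05, adjusted p = 1.12e-20). The last ratio ran from 1.57 in an aged library to 2.09 in a PTH library. With the marker gate the differences of Pecam1 between the upper 3 types were smaller and did not pass, at 0.011 between rEC-like and aEC-like, 0.10 between rEC-like and mpEC-like and 0.09 between aEC-like and mpEC-like cells. Without integration the last was 0.12 and did not pass either. The type H pair thus differed in shape across vessels. Emcn set mpEC-like cells above every other type, whereas clustered mpEC-like cells held less Pecam1 than both other upper types in 10 of 10 libraries.

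Podxl was graded along the arterial side. In aEC-like cells it was 793, 969 and 1119.5 CPM in the lowest, median and highest library, in rEC-like cells 294, 453 and 789, in mpEC-like cells 171, 344 and 425, and in bmEC-like cells 29.5, 58.3 and 77.7. The aEC-like level was above the rEC-like level in 10 of 10 libraries, and the rEC-like level above the mpEC-like level in 9 of 10, with a PTH library the other way at a ratio of 0.945. The log2 difference was -1.06 (SE 0.11, adjusted p = 6.31e-11) for rEC-like against aEC-like cells, 0.55 (SE 0.11, adjusted p = 5.73e-05) for rEC-like against mpEC-like cells and 2.51 (SE 0.12, adjusted p = 6.47e-24) for mpEC-like against bmEC-like cells. Without integration the first was -0.53 and the second 0.98, and both passed. No aEC-like library fell within the range of the mpEC-like or bmEC-like libraries.

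Cd34 split the ECs into bmEC-like cells and the rest. Its mean was 899 ± 217 CPM in mpEC-like, 857 ± 157 in rEC-like and 734 ± 256 in aEC-like cells (SD, n = 10 each), 697 ± 186 in pEC-like cells (SD, n = 9) and 63.5 ± 27.2 in bmEC-like cells (SD, n = 10). Which type was highest changed with the group. It was the mpEC-like type in the 4 aged and PTH libraries, the rEC-like type in the 4 adult and alendronate libraries and the aEC-like type in the 2 juvenile libraries. The log2 difference for rEC-like against mpEC-like cells was -0.04 (SE 0.14, adjusted p = 0.848), that for aEC-like against mpEC-like cells -0.32 (SE 0.14, adjusted p = 0.056) and that for rEC-like against aEC-like cells 0.28 (SE 0.14, adjusted p = 0.136), and none passed. The aEC-like difference passed without either juvenile library (-0.35 and -0.38) and without integration (-0.30). With the marker gate Cd34 was lower in rEC-like (-0.79) and aEC-like (-0.56) than in mpEC-like cells, and both passed. Against bmEC-like cells the mpEC-like level was higher by 3.84 (SE 0.16, adjusted p = 1.02e-25), with ratios from 7.42 in an aged library to 21.1 in an adult one. The bmEC-like level differed between groups as well, since Cd34 in bmEC-like cells was 40.9 to 45.2 CPM in the juvenile, adult and alendronate libraries and 86.6 to 103 CPM in the aged and PTH libraries.

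Low values were set beside erythroid cells as a comparison type. Of 526 erythroid cells thinned to 1000 UMIs each 8.94% had an Emcn UMI (95% exact binomial interval 6.64 to 11.7), 7.79% a Pecam1 UMI (5.65 to 10.4), 4.75% a Podxl UMI (3.10 to 6.94) and 6.08% a Cd34 UMI (4.20 to 8.48). These intervals cover counting error only. Of bmEC-like cells at the same depth, 5.20% had a Podxl UMI and 5.72% a Cd34 UMI (means of 10 libraries), which is within the erythroid intervals. In counts summed by group, however, Podxl in bmEC-like cells lay above the erythroid level of its group in all 5 groups, by the least in the juvenile one, as given further on. The source of the UMIs in erythroid cells, free RNA or doublets among them, was not tested. By group the Cd34 share in bmEC-like cells was 8.32 to 9.53% in the aged and 8.53 to 8.57% in the PTH libraries, around or above the upper erythroid limit, and 3.32 to 4.03% in the juvenile, 3.59 to 4.31% in the adult and 3.33 to 3.68% in the alendronate libraries. The median depth before thinning was 6716 UMIs in erythroid and 3752 in bmEC-like cells. Emcn and Pecam1 stood far above the erythroid shares, at 51.0% and 41.8% of bmEC-like cells. Outside the endothelium, a cluster of 828 thinned myeloid progenitor cells led by Elane and Mpo had a Cd34 UMI in 13.4% of cells (11.2 to 15.9).

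Detection per cell was compared between types at equal depth, with 42145 ECs thinned to 1000 UMIs and 1881 shallower ones left out. Among mpEC-like cells 75.2 ± 5.04% had an Emcn UMI, against 51.0 ± 3.30% of the bmEC-like type, and a Pecam1 UMI was found in 64.7 ± 4.36% and 41.8 ± 6.23% (mean ± SD, n = 10 libraries). For Podxl the shares were 27.1 ± 7.38% and 5.20 ± 1.48%, and for Cd34 53.3 ± 7.66% and 5.72 ± 2.63%. Without thinning, over all cells of a type, the shares were 94.2% and 85.7% for Emcn, 92.8% and 78.7% for Pecam1, 57.1% and 16.0% for Podxl and 81.2% and 13.7% for Cd34. At equal depth both type H genes were seen together in 49.0 ± 4.77% of mpEC-like against 22.6 ± 4.94% of bmEC-like cells, Podxl and Cd34 together in 15.7 ± 3.92% and 0.324 ± 0.187%, and all 4 genes in 8.59 ± 2.74% and 0.0798 ± 0.0743%. Podxl and Cd34 were seen together in 27.2 ± 5.02% of aEC-like and 18.4 ± 4.43% of rEC-like cells, and all 4 genes in 9.17 ± 2.80% and 8.04 ± 2.15%. In each of 11 comparisons of mpEC-like with bmEC-like cells, of 4 genes, 6 pairs and all 4 together, the mpEC-like share was higher in 10 of 10 libraries. The exact two-sided permutation test, which flips the sign of the paired difference, gave p = 0.00195 for each, the smallest that 10 libraries allow, and the Benjamini-Hochberg value over the 11 was the same. Each library counted as a unit of its own there, although nothing ties the 2 libraries of a group to separate mice.

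Within a type, co-detection was described by the odds ratio, which is 1 where a pair is seen together as often as its single shares predict. The odds ratio of Emcn and Pecam1 had a median over libraries of 1.17 in mpEC-like cells (0.862 to 1.30) and 0.944 in aEC-like cells (0.676 to 1.32). It was also 1.17 in bmEC-like cells (1.03 to 1.58), above 1 in 10 of 10 libraries, against 8 of 10 in mpEC-like cells. In rEC-like cells it was 1.01 (0.529 to 3.05). Of the 6 pairs in mpEC-like and aEC-like cells, the one that departed most from 1 was Emcn with Cd34 in aEC-like cells, where the median was 1.61 (1.08 to 1.87) and every library lay above 1. For Podxl with Cd34 the median was 1.29 in mpEC-like cells, above 1 in 10 of 10 libraries, and 0.881 in aEC-like cells, above 1 in 3 of 10. These ratios are a description of sparse counts and carry no test.

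**Figure D2:**
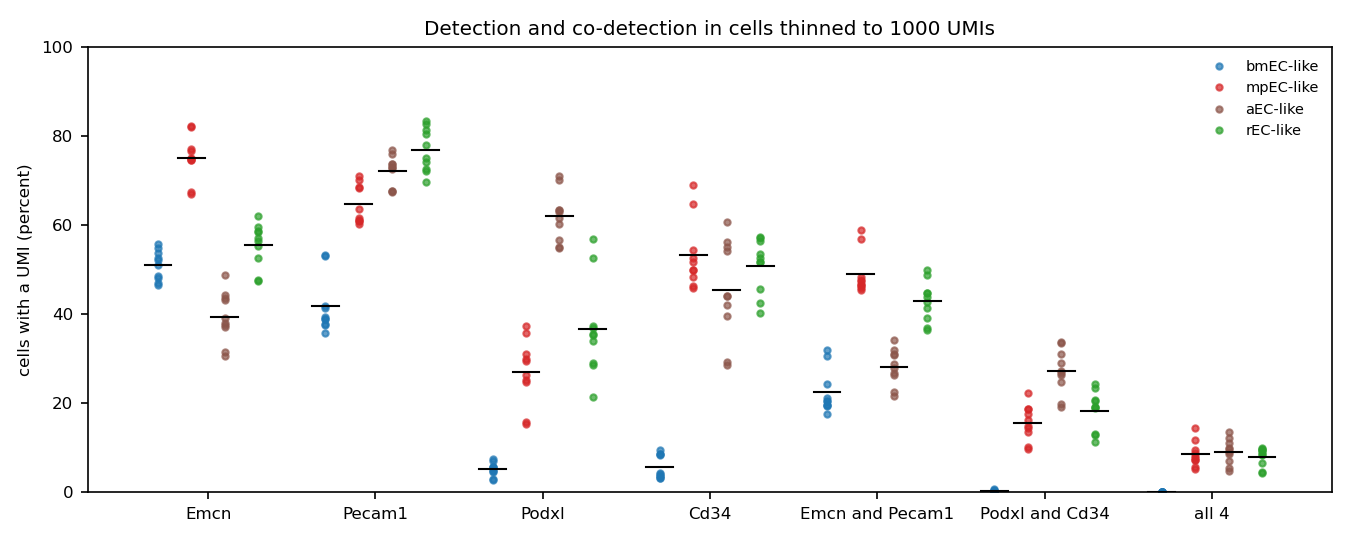
Percent of bmEC-like, mpEC-like, aEC-like and rEC-like cells, thinned to 1000 UMIs, that held a UMI of each gene, of both genes of a named pair, or of all 4 genes, with 1 point per library and a bar at the mean of 10 libraries. The mpEC-like mean lies above the bmEC-like mean for every item, from 75.2% against 51.0% for Emcn to 8.59% against 0.0798% for all 4 genes.

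The sum of Emcn and Pecam1 UMIs in a thinned cell was set against vessel type, as a count of RNA and not of stained protein. The area under the ROC curve is the chance that an mpEC-like cell holds more UMIs than a bmEC-like cell of its library, with ties counted as 0.5. It was 0.730 ± 0.0440 for the sum (SD, n = 10, range 0.636 to 0.776), 0.678 ± 0.0481 for Emcn and 0.645 ± 0.0240 for Pecam1. Cd34 alone reached 0.743 ± 0.0378 and the sum of Podxl and Cd34 0.787 ± 0.0265. The latter sum had 0.810 ± 0.0173 for rEC-like and 0.872 ± 0.0170 for aEC-like against bmEC-like cells. The type H sum separated rEC-like from bmEC-like cells nearly as far, at 0.706 ± 0.0341, and hardly separated mpEC-like from rEC-like cells, at 0.530 ± 0.0346. These areas are given with no test.

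Cells with at least 2 UMIs of Emcn and at least 2 of Pecam1 in 1000 were called double-high, a range cut from counts and not a cell type. There were 3155 such cells. Another 10855 had at least 1 UMI of each but fell short of the cut, and 2540 of the double-high cells sat exactly at it for at least 1 of the genes. The share of double-high cells was 14.5 ± 3.26% in mpEC-like, 11.5 ± 4.46% in rEC-like, 4.43 ± 1.51% in aEC-like and 2.59 ± 1.25% in bmEC-like cells (SD, n = 10), and 9.37 ± 3.46% in pEC-like cells (SD, n = 9). The mpEC-like cells made up 60.9 ± 10.2% of double-high cells and 30.7 ± 6.30% of thinned ECs. The bmEC-like cells made up 13.03 ± 3.24% of double-high cells and 40.9 ± 14.4% of thinned ECs, and the rEC-like cells 15.2 ± 9.57% and 10.7 ± 6.92%. In mpEC-like cells the share was 19.6% and 21.4% in the PTH libraries and 14.04% and 13.4% in the adult libraries. In the other groups it was 12.7% and 11.9% with alendronate, 13.1% and 13.2% in juvenile and 13.8% and 11.9% in aged mice. In bmEC-like cells it was 2.95% and 3.84% with PTH, 3.33% and 5.27% in aged mice, 2.17% and 1.96% with alendronate, 1.85% and 1.39% in juvenile mice and 1.52% and 1.60% in adults. In rEC-like cells it was 15.6% and 14.6% with PTH, 9.21% and 21.4% in juvenile mice, 10.2% and 11.1% with alendronate, 8.31% and 9.30% in aged mice and 6.44% and 8.98% in adults. The PTH libraries lay above both adult ones in these 3 types, but libraries clear of the adult ones were not particular to PTH. Aged and alendronate libraries also lay above in bmEC-like cells, alendronate and juvenile ones above in rEC-like cells, and alendronate and juvenile ones below in mpEC-like cells. Summed rEC markers in rEC-like cells were 1171 to 1570.0 CPM with PTH against 2239 to 2453 in adults. In aEC-like and pEC-like cells the PTH and adult libraries overlapped. With 2 libraries against 2, an exact permutation test cannot go below p = 0.333, so these shares were not tested.

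**Figure D3:**
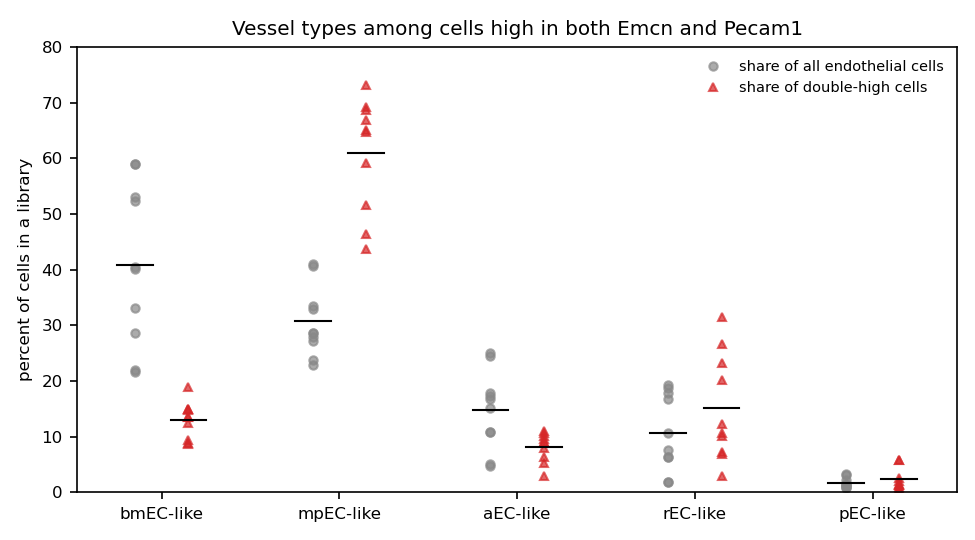
Share of each vessel type among all thinned ECs (circles) and among double-high cells (triangles, at least 2 UMIs of both Emcn and Pecam1 after thinning to 1000 UMIs), in percent of a library's cells, with 1 point per library and a bar at the mean. The mpEC-like cells are 60.9% of double-high cells and 30.7% of ECs, and the bmEC-like cells 13.03% and 40.9%.

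The partners of these proteins were counted from lists, given as counts with values for the members of highest level or largest difference. Of the adaptors and ERM proteins that bind CD34-family tails, 4 of 6 were higher and 1 lower in mpEC-like than in bmEC-like cells, where 56.9% of all genes passed, with a median log2 difference of 0.49 against 0.00 over all genes tested. Slc9a3r2, which encodes the NHERF2 adaptor that binds the podocalyxin tail, was higher by 1.85 (SE 0.12, adjusted p = 1.11e-18), and Msn (moesin) by 0.96 (SE 0.05, adjusted p = 8.42e-21). Rdx (radixin) was higher by 0.25 and Ezr (ezrin) lower, at -0.66. Slc9a3r2 fell in level in the order of Podxl, at 1528 ± 69.9 CPM in aEC-like, 948 ± 213 in rEC-like, 619.8 ± 96.6 in mpEC-like and 171 ± 35.7 in bmEC-like cells (SD, n = 10 each).

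Among other sialomucins and the vascular selectins, Madcam1, Podxl2, Cd164, Sele and Selp were lower and Cd24a higher in mpEC-like than in bmEC-like cells. Of 10 further sialomucins and mucin-like genes, 4 passed the filter on low counts, of which 3 were lower and 1 higher by the test that 56.9% of genes passed, with a median of -1.43. Madcam1, a mucosal addressin, differed by -4.19 (SE 0.18, adjusted p = 2.49e-25), Podxl2 (endoglycan, the third member of the CD34 family) by -2.04 (SE 0.20, adjusted p = 1.01e-12) and Cd164 by -0.81 (SE 0.05, adjusted p = 1.54e-18), while Cd24a was higher by 0.73 (SE 0.25, adjusted p = 0.0106). Podxl2 was low everywhere, at 8.33 ± 2.21 CPM in bmEC-like and 2.03 ± 1.45 in mpEC-like cells (SD, n = 10). Of the 3 selectins, Sele (E-selectin) and Selp (P-selectin) were tested, and they differed by -2.93 (SE 0.16, adjusted p = 1.87e-21) and -2.22 (SE 0.17, adjusted p = 3.55e-16). The bmEC-like cells, in which Podxl and Cd34 were lowest, held the highest Madcam1, Podxl2, Sele and Selp of the 5 types by mean level.

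Of 27 enzymes of mucin-type O-glycan synthesis 22 were tested, and 10 were higher and 6 lower in mpEC-like than in bmEC-like cells, with a median of 0.14. Galnt7 was higher by 0.94 (SE 0.11, adjusted p = 2.62e-10) and the sialyltransferase St6galnac4 by 0.89 (SE 0.07, adjusted p = 2.27e-16). Chst2, a sulphotransferase that makes L-selectin ligands, differed by -1.84 (SE 0.13, adjusted p = 4.52e-17) and the sialyltransferase St6galnac2 by -1.08 (SE 0.09, adjusted p = 1.67e-14). Of 14 PECAM1 signalling partners 12 were tested, with 5 higher, 4 lower and a median of 0.03. Inpp5d, the SHIP1 phosphatase, was higher by 0.74 (SE 0.06, adjusted p = 2.24e-14), and Gab1, a docking adaptor, differed by -0.44 (SE 0.07, adjusted p = 4.70e-07). Against a background of 56.9% of genes passing, the 5 of 6, 4 of 4, 2 of 2, 16 of 22 and 9 of 12 that passed in these lists are a description.

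Age and treatment were first compared over all ECs of a library, where a change in the mix of vessel types and a change per cell cannot be told apart. The mix itself differed. The bmEC-like cells, lowest in Pecam1, Podxl and Cd34, were 51.85% and 52.5% of ECs in the adult libraries. They were 59.1% and 58.8% in juvenile, 21.7% and 21.6% in aged, 33.2% and 27.7% in PTH and 39.8% and 39.2% in alendronate libraries. The aEC-like cells, highest in Podxl, were 10.81% and 10.77% in adult and 4.80% and 5.06% in juvenile libraries. They were 24.8% and 24.5% in aged, 15.1% and 17.8% in PTH and 16.9% and 17.1% in alendronate libraries. The mpEC-like cells, highest in Emcn, were 28.0% and 27.5% in adult and 28.7% and 28.9% in juvenile libraries. They were 32.9% and 33.2% in aged, 41.1% and 41.7% in PTH and 23.8% and 23.2% in alendronate libraries. The part of the mix in the differences below was not tested. The 4 comparisons share the adult libraries. Levels are CPM in the fit named. In juvenile mice Podxl was 118 and 125 CPM in the 2 libraries against 259 and 246 in adults, with a log2 difference of -1.06 (SE 0.07, adjusted p = 1.67e-10). Pecam1 was 708 and 703 against 801 and 775, at -0.16 (SE 0.04, adjusted p = 0.00113). Emcn and Cd34 did not pass, at 0.02 (SE 0.03, adjusted p = 0.638) and -0.09 (SE 0.04, adjusted p = 0.0964), so 2 of 4 members passed where 43.0% of 15385 genes did.

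In PTH mice all 4 members were higher than in adults, in a comparison in which 29.5% of genes passed. Cd34 rose most, at 829.5 and 871 CPM against 429 and 413, a log2 difference of 1.01 (SE 0.04, adjusted p = 4.30e-13). Podxl was 314 and 392 CPM against 259 and 246 (0.49, SE 0.06, adjusted p = 5.79e-06), Pecam1 1019 and 1094 against 801 and 775 (0.43, SE 0.04, adjusted p = 1.24e-08) and Emcn 1347 and 1336 against 1014 and 1013 (0.40, SE 0.03, adjusted p = 8.83e-09). The Podxl difference was 0.31 without the second PTH library and passed. In alendronate mice, where 27.3% of genes passed, Podxl was 367 and 367 CPM in the 2 libraries (0.54, SE 0.06, adjusted p = 2.64e-06) and Pecam1 920.3 and 933 (0.23, SE 0.04, adjusted p = 4.73e-05). Cd34, at 458 and 445 CPM, had a difference of 0.10 (SE 0.04, adjusted p = 0.0761) and Emcn, at 1049.5 and 1004, of 0.02 (SE 0.03, adjusted p = 0.724).

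In aged mice 73.4% of genes passed, and 3 of 4 members were among them. Podxl was 463 and 482 CPM (0.90, SE 0.06, adjusted p = 9.91e-11), Pecam1 987 and 994 (0.33, SE 0.04, adjusted p = 5.74e-08) and Emcn 785 and 821 (-0.34, SE 0.03, adjusted p = 1.64e-08), while Cd34, at 394 and 419, did not pass (-0.05, SE 0.04, adjusted p = 0.278). The scaling matters here. Scaling by plain totals in place of TMM moved the median of all genes by 0.34 on the log2 scale, and Emcn then differed by 0.0044 and Cd34 by 0.29, so the lower Emcn is a statement relative to the typical gene. The direction for Podxl and Pecam1 was the same under both, with Pecam1 at 0.67 under plain totals.

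Within vessel types Podxl was lower in juvenile mpEC-like, bmEC-like and aEC-like cells, by an amount that depended on how the cells were typed. In mpEC-like cells it was 174 and 185 CPM against 325 and 306 in adults (-0.81, SE 0.06, adjusted p = 6.97e-15), and in aEC-like cells 856 and 846 against 985 and 983 (-0.21, SE 0.07, adjusted p = 0.0351). The aEC-like call was lost without any single library of the adult or juvenile groups (-0.23 to -0.21), and the marker gate put it at -0.055. Of 20 alternatives, 10 kept the aEC-like call. In bmEC-like cells, where Podxl was low, it was 29.98 and 28.3 against 49.2 and 52.4 (-0.80, SE 0.08, adjusted p = 2.96e-09). In plain CPM the juvenile sums of 28.1 and 26.5 lay close to the 25.4 of erythroid cells, against adult sums of 46.5 and 49.9 and 19.96 in erythroid cells. Without integration the mpEC-like difference shrank to -0.30 and the bmEC-like one to -0.19, and both passed. The summed arterial markers moved the same way, at 312 to 317 CPM in juvenile against 514 to 551 in adult mpEC-like cells and 91.8 to 95.2 against 149 to 166 in bmEC-like cells. Metaphyseal sums were higher, at 3643 to 3654 against 2812 to 2893 in mpEC-like and 852 to 853.5 against 516 to 518 in bmEC-like cells. In bmEC-like cells erythroid sums were 359 to 398 against 201 to 236 and megakaryocyte sums 196 to 219 against 77.7 to 89.5. The part of these markers in the Podxl difference was not tested. In rEC-like cells the difference of -0.43 (SE 0.17, adjusted p = 0.187) and in pEC-like cells that of -0.03 (SE 0.21, adjusted p = 0.968) did not pass. Cd34 in juvenile aEC-like cells was 1095 and 1031 CPM against 736 and 731 (0.54, SE 0.06, adjusted p = 1.12e-08). Summed metaphyseal markers in these cells were 2186 to 2395 CPM in juvenile against 754 to 763 in adult mice, and their part in the Cd34 difference was not tested. These were the calls among the 20 juvenile values of members within types, where the share of genes that passed was 37.1% in bmEC-like, 30.3% in mpEC-like, 13.1% in aEC-like, 3.36% in rEC-like and 3.18% in pEC-like cells. Other typings added calls. Without integration juvenile Cd34 was higher by 1.47 in bmEC-like and 0.53 in mpEC-like cells, against 0.01 and 0.06 in the integrated clusters, and at the finer clustering by 0.27 in bmEC-like cells. Without integration there were 3072 and 2815 juvenile bmEC-like cells, against 2447 and 2265 with it. The mpEC-like type held 683 and 635, against 1188 and 1113. The part of this shift between types in the Cd34 and Podxl values was not tested.

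**Figure D4:**
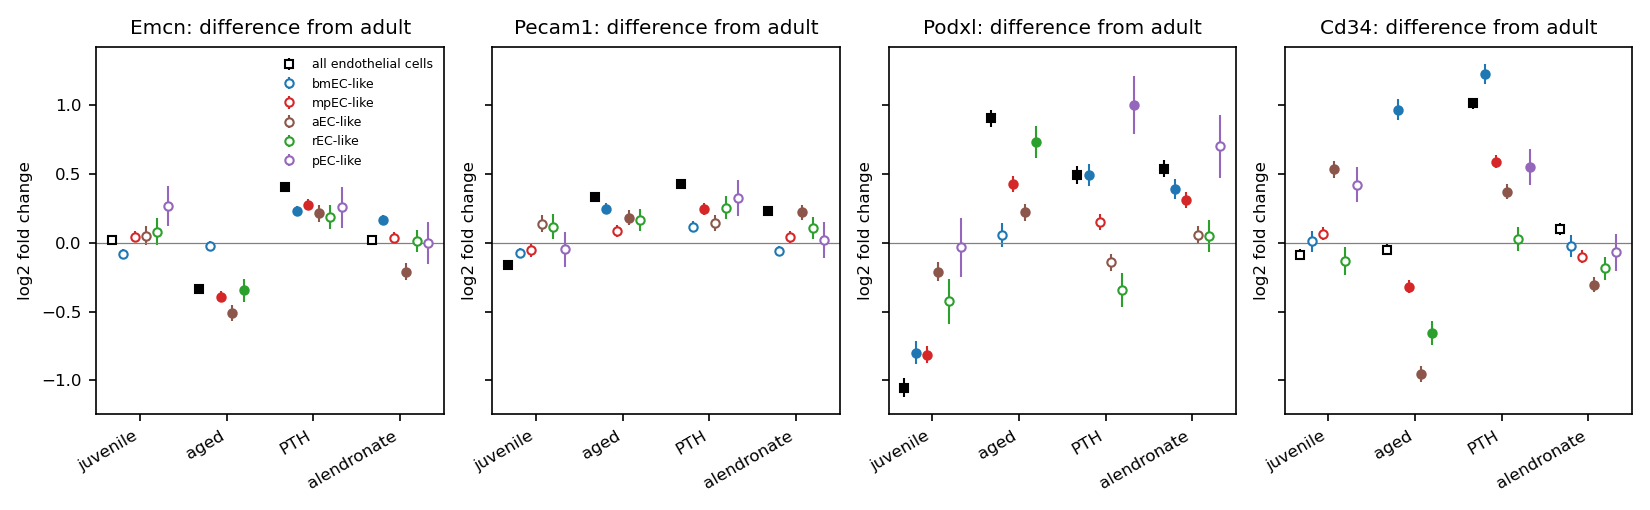
Log2 difference from the adult group, with standard error, of each member in all ECs and within each vessel type, for the juvenile, aged, PTH and alendronate groups (2 libraries a group, edgeR with TMM, no aged value in pEC-like cells). The standard error was derived from the F statistic of the test. Filled points passed an adjusted p under 0.05. Aged Cd34 lies at 0.97 in bmEC-like cells and at -0.32, -0.96 and -0.65 in mpEC-like, aEC-like and rEC-like cells.

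Cd34 in aged mice moved in opposite directions in different vessels. In aEC-like cells it was 386 and 369.8 CPM against 736 and 731 in adults (-0.96, SE 0.06, adjusted p = 4.99e-17), in rEC-like cells 600.2 and 616 against 964 and 950.4 (-0.65, SE 0.09, adjusted p = 4.29e-07) and in mpEC-like cells 661 and 720.4 against 875 and 851 (-0.32, SE 0.05, adjusted p = 9.08e-08). In bmEC-like cells it was 80.6 and 79.6 against 39.0 and 43.0 (0.97, SE 0.08, adjusted p = 3.91e-12). The groups did not overlap in any of these, but much else differed as well. The share of genes that passed in aged mice was 65.3% in bmEC-like, 67.5% in mpEC-like, 48.1% in rEC-like and 56.9% in aEC-like cells. Plain totals moved the median gene by 0.40 in bmEC-like, 0.23 in mpEC-like, 0.10 in rEC-like and 0.10 in aEC-like cells and turned none of these 4 directions, but the mpEC-like difference then shrank to -0.089 (adjusted p = 0.0796). The aEC-like difference was -0.53 without integration, where that type held 1325 and 1381 aged cells in place of 554 and 568, and passed. The rEC-like difference was -0.38 with the marker gate and did not pass (adjusted p = 0.0813). Summed sinusoidal markers were 295 to 313 CPM in aged against 924 to 1051 in adult aEC-like cells and 298 to 313 against 618 to 832 in rEC-like cells, and summed metaphyseal markers in rEC-like cells 1152 to 1180.0 against 1624 to 1809. Their part in these differences was not tested.

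Aged Emcn was lower in aEC-like cells (-0.51, SE 0.06, adjusted p = 2.66e-09), mpEC-like cells (-0.39, SE 0.04, adjusted p = 3.78e-11) and rEC-like cells (-0.34, SE 0.08, adjusted p = 0.00131). The last was -0.075 with the marker gate and -0.14 without integration, and passed in neither. In mpEC-like cells the libraries held 1213 and 1251 CPM against 1620.1 and 1611, a difference of -0.16 under plain totals. In bmEC-like cells Emcn did not pass (-0.02, SE 0.04, adjusted p = 0.608), and plain totals put it at 0.38. The aEC-like difference was -0.30 with the marker gate, and its direction turned, to 0.41, when cells were typed without integration, a setting in which the aged libraries had almost no mpEC-like cells. The aEC-like type then held 1325 and 1381 aged cells, against 554 and 568 with integration, and the same holds for the other members. Aged Podxl was higher in rEC-like cells at 702 and 821 CPM against 482 and 434 (0.73, SE 0.11, adjusted p = 5.95e-06), in mpEC-like cells at 431 and 416 against 325 and 306 (0.42, SE 0.06, adjusted p = 9.14e-09) and in aEC-like cells at 1133 and 1162 against 985 and 983 (0.22, SE 0.06, adjusted p = 0.00187), the last turning to -0.52 without integration. The aEC-like call held in 18 of 20 alternatives. The rEC-like difference was 0.39 without integration and the mpEC-like one 0.66 under plain totals, and both passed. In mpEC-like cells the summed arterial markers were 669 to 693 CPM in aged against 514 to 551 in adult mice and the summed rEC markers 68.5 to 76.8 against 21.1 to 21.4. In rEC-like cells the summed mesenchymal markers were 142 to 187 against 61.4 to 68.6 and the summed erythroid markers 443 to 2028 against 197 to 325. The part of these markers in the aged differences was not tested. In bmEC-like cells Podxl differed by 0.06 (SE 0.09, adjusted p = 0.586), or 0.46 under plain totals. Aged Pecam1 was higher in bmEC-like cells (0.25, SE 0.04, adjusted p = 1.76e-06) and aEC-like cells (0.18, SE 0.06, adjusted p = 0.00573) and did not pass in mpEC-like (0.09, adjusted p = 0.0862) or rEC-like cells (0.17, adjusted p = 0.0932). Under plain totals it passed in both, at 0.32 and 0.27, and also with the marker gate, at 0.17 and 0.43. The bmEC-like difference was 0.65 under plain totals and 0.17 with no filter on low counts. The aEC-like Pecam1 call was lost without the first adult library (0.16), without the second aged library (0.14) and without integration (0.016).

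With PTH, Cd34 was higher in 4 of the 5 types. It was 97.9 and 94.97 CPM in bmEC-like cells against 39.0 and 43.0 in adults (1.23, SE 0.07, adjusted p = 3.05e-13), and 1272 and 1324 in mpEC-like cells against 875 and 851 (0.59, SE 0.05, adjusted p = 2.06e-14). With the marker gate these were 0.57 and 0.28, without integration the bmEC-like difference was 0.68, and all 3 passed. It was 934 and 961 in aEC-like cells against 736 and 731 (0.37, SE 0.06, adjusted p = 8.17e-06; 0.20 and not passing with the marker gate), and 875 and 962 in pEC-like cells against 637 and 619 (0.55, SE 0.13, adjusted p = 0.0202). The pEC-like call was lost without the second PTH library (0.47, adjusted p = 0.304), without either adult library (0.56 and 0.52) and in DESeq2 (0.54). In rEC-like cells, at 992 and 962 against 964 and 950.4, the difference of 0.03 (SE 0.09, adjusted p = 0.92) did not pass. Vessel markers moved within types as well. In mpEC-like cells the summed metaphyseal markers were 4727 to 4833 CPM with PTH against 2812 to 2893 in adults and the summed sinusoidal markers 1209 to 1297 against 2548 to 2583, and in aEC-like cells the metaphyseal markers were 1249 to 1263 against 754 to 763. The part of these markers in the rises of Cd34, Emcn and Pecam1 with PTH was not tested. The shares of genes that passed were 8.63% in bmEC-like, 18.7% in mpEC-like, 6.77% in aEC-like, 5.59% in rEC-like and 1.72% in pEC-like cells.

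Emcn with PTH was higher in mpEC-like cells, at 1966 and 1951 CPM against 1620.1 and 1611 (0.28, SE 0.04, adjusted p = 1.01e-06), in bmEC-like cells (0.23, SE 0.04, adjusted p = 4.47e-05; 0.14 and not passing with the marker gate) and in aEC-like cells (0.21, SE 0.06, adjusted p = 0.0195). The aEC-like call held in 13 of 20 alternatives. Among others it was lost without the second PTH library (0.16), without either adult library (0.21 and 0.21), with the marker gate (0.21) and in DESeq2 (0.22). Pecam1 passed in mpEC-like cells, at 1167 and 1253 CPM against 1040.3 and 1007 (0.24, SE 0.05, adjusted p = 4.32e-05; 0.14 and not passing with the marker gate), and missed the threshold narrowly in bmEC-like cells (0.12, SE 0.04, adjusted p = 0.0601) and rEC-like cells (0.26, SE 0.08, adjusted p = 0.0677). Either side of the threshold was reached for these, as Pecam1 passed at the finer clustering (0.15 in bmEC-like and 0.25 in rEC-like cells), under plain totals (0.14 and 0.27), in stricter cells (0.12) for bmEC-like, and without either juvenile library (0.27 each) for rEC-like cells. Podxl did not pass in mpEC-like cells, where the 2 libraries at 319.9 and 373 CPM overlapped the adult ones at 325 and 306 (0.15, SE 0.06, adjusted p = 0.0554), though it passed without the first PTH library (0.24). Podxl there stayed short of the threshold in 14 of 21 alternatives, with values from -0.070 to 0.245 over all 21. It was higher in pEC-like cells at 253 and 245 CPM against 149 and 94.8 (1.00, SE 0.21, adjusted p = 0.00848) and in bmEC-like cells (0.49, SE 0.08, adjusted p = 5.11e-05). The pEC-like call was lost without the second PTH library (1.02, adjusted p = 0.0864), without the second adult library (0.73) and in DESeq2 (1.01), and the bmEC-like call without the second PTH library (0.39) and with the marker gate (0.10). The difference of -0.14 in aEC-like (adjusted p = 0.203) and of -0.35 in rEC-like cells (adjusted p = 0.101) did not pass, and without the second PTH library both did, at -0.30 and -0.62.

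With alendronate the calls lay in bmEC-like, mpEC-like and aEC-like cells. Podxl was higher in mpEC-like cells, at 389 and 395 CPM against 325 and 306 (0.31, SE 0.06, adjusted p = 7.29e-05; 0.21 and not passing with the marker gate), and in bmEC-like cells (0.39, SE 0.07, adjusted p = 0.00021). Arterial markers in mpEC-like cells moved the same way, at 645 to 663 CPM against 514 to 551, as did rEC markers, at 33.2 to 44.5 against 21.1 to 21.4. In plain CPM Podxl in bmEC-like cells was 62.8 and 61.3 with alendronate against 46.5 and 49.9 in adults, while in erythroid cells it was 34.9 against 19.96. The part of these markers and of the erythroid level in the Podxl differences was not tested. Emcn was higher in bmEC-like cells, at 812 and 815 CPM against 716 and 735 (0.16, SE 0.04, adjusted p = 0.00144), and lower in aEC-like cells, at 536 and 508 against 603 and 604 (-0.21, SE 0.06, adjusted p = 0.0246). In aEC-like cells Cd34 was also lower, at 604 and 583 CPM against 736 and 731 (-0.30, SE 0.06, adjusted p = 0.000337), and Pecam1 higher, at 1318 and 1332 against 1122 and 1152 (0.22, SE 0.06, adjusted p = 0.0103). The aEC-like calls of Emcn and Pecam1 each held in 14 of 20 alternatives. Among others they were lost without either adult library (-0.21 and -0.21 for Emcn, 0.20 and 0.24 for Pecam1), without the second alendronate library (-0.17 and 0.21) and with the marker gate (-0.10 and 0.21). No member passed in rEC-like or pEC-like cells. Summed sinusoidal markers in aEC-like cells were 621 to 796 CPM with alendronate against 924 to 1051 in adults and summed erythroid markers 349.6 to 2163 against 152 to 259, and their part was not tested. The shares of genes that passed were 17.2% in bmEC-like, 14.4% in mpEC-like, 6.18% in aEC-like, 2.69% in rEC-like and 1.26% in pEC-like cells.

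Low Cd34 and Podxl in bmEC-like cells were set beside other cell types of each group. In plain CPM Cd34 was 36.9 and 40.9 in the adult bmEC-like sums, 101 and 99.5 in the aged sums and 94.4 and 91.5 in the PTH sums, while erythroid cells held 30.9 in the adult, 34.2 in the aged and 45.9 in the PTH group. The juvenile sums were 38.3 and 39.0 against 21.5 in erythroid cells, and the alendronate sums 36.6 and 38.4 against 39.9. The sums thus lay above the erythroid level of their group in every group but alendronate. The aged sums also lay above the 43.2 of lymphoid and neutrophil cells. For Podxl the bmEC-like sums held 46.5 and 49.9 in the adult and 64.5 and 70.7 in the PTH group, and erythroid cells 19.96 and 38.9. In the aged group they held 70.9 and 61.2, against 27.6 in erythroid and 68.8 in lymphoid and neutrophil cells. Markers of other vessels also moved in bmEC-like cells. The summed arterial markers were 158 CPM in the adult (149 to 166), 264 in the aged (245 to 283) and 251 in the PTH group (244 to 259). The summed metaphyseal markers were 517, 712 and 746 CPM, and the summed rEC markers 19.8, 119 and 21.8. The part of these markers in the Cd34 difference was not tested.

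**Figure D5:**
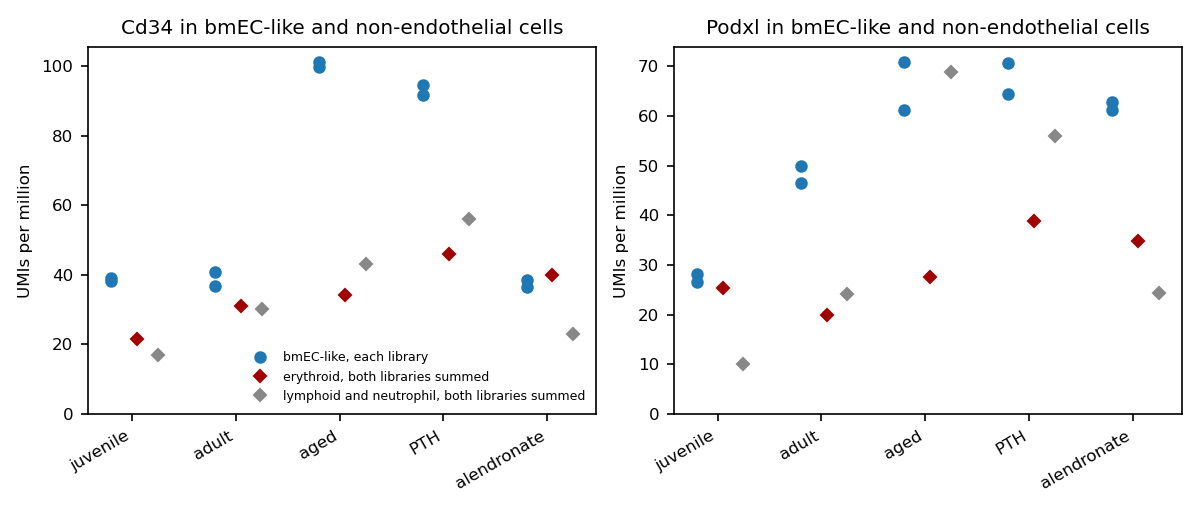
Cd34 (left) and Podxl (right) in bmEC-like cells (circles, 1 per library) beside the same genes in erythroid cells and in lymphoid and neutrophil cells of the same group (diamonds, both libraries summed), all in plain CPM; the PTH lymphoid and neutrophil points rest on 1 UMI. Aged and PTH bmEC-like sums of Cd34 lie at 91.5 to 101 CPM against 34.2 and 45.9 in erythroid cells, whereas the adult sums lie at 36.9 and 40.9 against 30.9.

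Whether an effect differed between mpEC-like and bmEC-like cells was tested directly, as the mpEC-like minus the bmEC-like log2 difference with the library as a block. In aged mice all 4 members passed, where 15.1% of 13347 genes did. Cd34 had -1.33 (SE 0.09, adjusted p = 4.49e-24), Emcn -0.41 (SE 0.04, adjusted p = 8.89e-14), Pecam1 -0.20 (SE 0.05, adjusted p = 0.000502) and Podxl 0.33 (SE 0.10, adjusted p = 0.00908). The Podxl call was lost without the second adult (0.25) or the second aged library (0.27), in DESeq2 (0.35) and with the marker gate (0.24), and that of Pecam1 without the second aged library (-0.14) and with the marker gate (-0.11). With PTH, Cd34 had -0.64 (SE 0.08, adjusted p = 5.84e-10) and Podxl -0.33 (SE 0.09, adjusted p = 0.00806), where 6.15% of genes passed, so the rise of Cd34 was proportionally larger in the cells with the lower level. The PTH calls were lost with the marker gate (-0.24 and -0.14) and without integration (-0.16 and -0.11), and that of Podxl also without the first adult (-0.24) or either PTH library (-0.30 and -0.40). Emcn in juvenile mice had 0.13 (SE 0.04, adjusted p = 0.026), where 9.71% passed, and lost its call without any single library of the juvenile (0.14 and 0.12) or adult group (0.15 and 0.11). With the marker gate it was 0.36 and passed, in DESeq2 it did not pass, and without integration its direction turned (-0.054). With alendronate no member passed, where 1.69% of genes did.

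Across 49 sums of a type and a library, the genes most like each member were named by Pearson correlation of log2 CPM among 6723 genes, as a description. The sums share libraries and vessel types. Emcn was closest to Prcp (0.913), Aplnr (0.903, a marker used to name mpEC-like cells) and Fscn1 (0.865). Pecam1 was closest to Ehd4 (0.954), Prnp (0.951) and Cav1 (0.946). Podxl was closest to Ceacam1 (0.977), Slc9a3r2 (0.970) and Pls3 (0.958), and Cd34 to Endod1 (0.937), Msn (0.925) and Plat (0.924). Among the members, Pecam1 went with Podxl (0.864) and Cd34 (0.80) and these with each other (0.739), whereas Emcn went with Cd34 at 0.364, with Pecam1 at 0.00941 and with Podxl at -0.219.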

How the data were processed

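The authors deposited 1 table of UMI counts per library, made per the labels with UMI-tools 1.1.2, STAR 2.7.10a and featureCounts 2.0.3 (Subread) on mm10. The annotation release and the strand setting are not given in the sources used here. The counts were used as deposited. Cells with 500 to 6000 genes and under 25% mitochondrial UMIs were kept, and 276 symbols starting with U that occurred only in the aged tables were left out. In Seurat 5.3.0, non-endothelial clusters were removed, the rest was integrated by anchors (2000 features, 30 components, resolution 0.5) and clusters were named from marker lists. The adult libraries were the references of the integration, so the libraries of every other group were aligned to the group they were compared with. Cluster borders moved slightly with the processor setting of the linear-algebra library, which was fixed, and calls near the threshold, such as PTH Pecam1 in bmEC-like cells, can change side with it. Marked doublets were kept and left out as an alternative. Counts were summed per vessel type and library (at least 20 cells) and tested with edgeR 4.0.16 (TMM, filterByExpr, quasi-likelihood) in R 4.3.3, with the library as a block between types and Benjamini-Hochberg adjustment over all genes tested at 0.05. The SE of a log2 difference is its absolute value divided by the square root of the quasi-likelihood F statistic. The edgeR fits and the thinning were tested on simulated counts. Shares used cells thinned to 1000 UMIs. Exact permutation tests used scipy 1.17.1 and positions and promoters came from GENCODE vM21 and RefSeq. The members and lists were chosen with earlier results of these data known. Named genes were the 4 members, list members of highest CPM or largest difference, and the 3 genes most correlated with each member (mean of at least 20 CPM). Libraries of a group differed by more than counting noise (chi-square of 1.86 to 3.22 per degree of freedom), so none was a copy. Alternatives covered scaling, filtering, DESeq2 1.42.0, clustering, integration, a marker gate, stricter cells, doublets and leaving out libraries.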

Additional observations from a re-analysis of the deposited data

Results flagged for a closer look

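The difference between mpEC-like and bmEC-like cells in the response of a member was itself tested, and it passed in 7 of 16 cases (mpEC-like minus bmEC-like log2 difference from adult, edgeR with the library as a block). Of all genes, 9.71% passed this test in juvenile, 15.1% in aged, 6.15% in PTH and 1.69% in alendronate mice. The members that passed in aged mice were Cd34 at -1.329, Emcn at -0.4066, Pecam1 at -0.1989 and Podxl at 0.3312. In PTH mice they were Cd34 at -0.6412 and Podxl at -0.329, and in juvenile mice Emcn at 0.1252. In aged Cd34 these vessel types moved in opposite directions, and in PTH Cd34 both rose. For Podxl the mean bmEC-like share of cells with a UMI was at that of erythroid cells, while its summed level in bmEC-like cells was above theirs (plain CPM of 46.5 and 49.9 against 19.96 in adult mice). Clustering gave aged mpEC-like cells almost only with integration. The calls of PTH Cd34, PTH Podxl, aged Podxl and aged Pecam1 did not hold with the marker gate. That of juvenile Emcn held in 7 of 14 alternatives, and its direction turned without integration (-0.054).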

How the results depend on the processing

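Over 143 results and 2748 alternative values, 2592 kept direction and side of the threshold, 81 were lost, 64 newly passed and 11 reversed. Between types 537 of 552 values were kept, and all 176 of co-detection. The cause of each change was not tested unless the setting shows it. Under plain totals aged Emcn and Cd34 over all ECs reversed to 0.0044 and 0.29 and aged Emcn in bmEC-like cells to 0.38, as the median gene moved by 0.34 and 0.40, and juvenile Cd34 over all ECs passed at -0.12. Without integration aged Emcn and Podxl in aEC-like cells reversed to 0.41 and -0.52, juvenile Emcn in bmEC-like cells to 0.18 and juvenile Pecam1 in mpEC-like cells to 0.12. The types then held other numbers of cells, such as 1325 and 1381 aged aEC-like cells against 554 and 568. Emcn in rEC-like against bmEC-like cells reversed to -0.31 with the marker gate and -0.15 without integration. Cd34 over all ECs passed at 0.11 with RLE factors (alendronate) and at -0.14 with no filter (aged). Of the effects compared between mpEC-like and bmEC-like cells, DESeq2 lost juvenile Emcn (0.14), aged Podxl (0.35) and PTH Podxl (-0.33). Without integration juvenile Emcn reversed (-0.054), as did juvenile Cd34 (-0.94), PTH Podxl (-0.11) and PTH Cd34 (-0.16) were lost and PTH Pecam1 (0.17) passed. The marker gate lost aged Pecam1 (-0.11) and Podxl (0.24) and PTH Podxl (-0.14) and Cd34 (-0.24). Leaving out the stromal-led and shallow clusters, chosen after seeing the data, lost juvenile Emcn (0.11). Leaving out 1 library at a time gave ranges of 0.11 to 0.15 for juvenile Emcn, 0.25 to 0.42 for aged Podxl, -0.23 to -0.14 for aged Pecam1, -0.41 to -0.24 for PTH Podxl, 0.072 to 0.16 for PTH Pecam1 and -0.16 to -0.096 for alendronate Emcn. The last 2 did not pass with all libraries and passed without either aged library (0.13 and 0.12, and -0.13 each). Leaving out both aged libraries, also chosen after seeing the data, changed no call between types and no share comparison.

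Replicate numbers do not pair the libraries, since deviations of same-numbered libraries correlated at -0.149 to 0.103. A fit with the replicate number as a block changed no call over all ECs or within types, for example 0.40 for PTH Emcn over all ECs. Without integration aged mpEC-like cells gave no values, and the marker gate held no pEC-like cells. With 2 libraries a group from pooled mice and 17 to 769 aged cells a type, differences in low counts are limited by depth.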
